A study of Mus musculus with 2 samples.

Results

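The miRNA cluster in an intron of Sfmbt2 was examined in small RNAs from the nuclear and cytoplasmic fractions of mouse dendritic cells. Its members were chosen by position and sequence, not by level. A deposited sequence was a member when it matched, on the sense strand and over its full length or with up to 3 unmatched bases at its 3′ end, an annotated miRNA-type gene lying wholly inside Sfmbt2 on the same strand. This gave 294 member sequences among 538100 deposited sequences and among 13952 sequences that matched any annotated miRNA gene. They held 876 reads in the nuclear library and 1371 reads in the cytoplasmic library.

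Both libraries came from bone marrow cells of C57BL/6 mice, cultured for 7 days with GM-CSF and IL-4, which drive bone marrow precursors towards dendritic cells, and stimulated with LPS, a bacterial cell wall component that these sentinel cells detect. The genotype was the same in both groups and no untreated cells were sequenced among the samples used here. Cells were swelled in RSB buffer, NP40, a mild detergent, was added, and the pellet with the nuclei gave the nuclear library and the remaining fraction the cytoplasmic library. There was 1 library in each group, so no difference below has a replicate check and no p-value is given. Each 95% interval is exact and takes in counting error alone: reads amplified by PCR and carrying no molecular identifier are not separate molecules.

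Primary miRNA transcripts are cut by Drosha in the nucleus, the hairpins are exported, and Dicer cuts them in the cytoplasm into a duplex of a 5′ arm (5p) and a 3′ arm (3p), of which one is usually kept by an Argonaute protein. The seed, bases 2 to 8 of the mature miRNA, does most of the pairing with target mRNAs. Sfmbt2 encodes a Polycomb-group protein and is an imprinted gene in the mouse, and its miRNAs, of the families miR-297, miR-466, miR-467 and miR-669, are best known from the placenta and from embryonic stem cells.

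In the annotation (GENCODE vM21, GRCm38), Sfmbt2 lies at chr2:10370510-10595253 on the plus strand, and 119 miRNA-type hairpin genes of 73 to 127 nt lay inside it. All 119 lay between 10465287 and 10518279, in the intron between exons 11 and 12 of one Sfmbt2 transcript, and 0 overlapped an exon. By name, 29 hairpins belonged to miR-669, 23 to miR-466, 14 to miR-467 and 5 to miR-297, and 48 carried no miRNA name. The 119 hairpins had only 88 distinct sequences, because a unit of miR-467a, miR-466b and miR-669a hairpins is repeated along the intron. Of the 119 hairpins, 73 had a matching read, 66 of them named, and 46 had none. Reads that match several hairpins cannot be given to 1 of them, so hairpin arms that shared most of their reads were joined and counted as a group. This gave 40 groups, and 18 further sequences (24 nuclear and 22 cytoplasmic reads) fell in several groups and were kept only in the totals.

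The most-read deposited sequence of each of the 12 groups with most reads is printed here in order of reads, with the seed in capitals, because the seeds and the stretches after them tell the groups apart. The sequences are the reads as deposited, with T for U, 5′ to 3′.
miR-669c-5p: aTAGTTGTgtgtggatgtgtgtat
miR-669a/o/p-3p: aCATAACAtacacacacacgtat
miR-467a/d-3p: aTATACATacacacacctaca
miR-466/466b/466c/466e/466p-3p: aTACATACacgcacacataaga
miR-466g-3p: aTACAGACacatgcacacacca
miR-669a/p-5p: aGTTGTGTgtgcatgttcatgt
miR-466f-2-3p: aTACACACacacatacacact
miR-467a/b-5p: tAAGTGCCtgcatgtatatg
miR-467e-5p: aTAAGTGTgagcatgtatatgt
miR-467c-5p: aTAAGTGCgtgcatgtatatgt
miR-297a/b/c-3p: aTATACATacacacatacccat
miR-466d/h-3p: tATACATAcacgcacacatag
The sequence shown for miR-466g-3p ends in 2 bases that the hairpin does not have. Several of the 3p sequences run into stretches of alternating C and A. Short alternating stretches of G and T stand in the miR-669 5p sequences, and the miR-467 5p sequences have a different body.

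The 2 libraries differed in what they held before any single miRNA is considered. The nuclear library listed 2000019 reads and the cytoplasmic library 2041383, and miRNAs were 40.5% of the first and 74.8% of the second. Fragments of small nucleolar RNAs were 31.2-fold higher in the nuclear library in RPM, the deposited unit, which puts the reads of each library on the same total, and fragments of mitochondrial tRNAs stood at a nuclear over cytoplasmic ratio of 0.354, so the fractions separated in the labelled direction. Myeloid and LPS-linked miRNAs were present in both libraries, with ratios between 0.339 (miR-342) and 1.38 (miR-155) over 6 hairpins. Of 4 sets of miRNAs that mark other cells, 3 were higher in the nuclear library: miR-122 of liver (287 nuclear and 24 cytoplasmic reads), miR-1a of muscle (108 and 7) and miR-290 to miR-295 of embryonic stem cells and placenta (56 and 6). The red cell miR-451a had 0 and 2 reads. Their part in the results below was not tested. In bulk RNA, fewer cells of a type and less RNA per cell cannot be told apart.

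Summed over all members, the cluster's level was 438 RPM among nuclear reads and 672 RPM among cytoplasmic reads. The nuclear over cytoplasmic ratio was 0.652 (95% interval 0.598 to 0.710), which is a cytoplasmic level 1.53 times the nuclear one (1.41 to 1.67). This direction belongs to the scale of all reads. As a share of miRNA reads the cluster made up 0.108% in the first library and 0.0898% in the second, a ratio of 1.20 (1.11 to 1.31) in the other direction, because all miRNA sequences together stood at a ratio of 0.541. On the scale of all reads the log2 ratio of the cluster total, -0.62, lay above that of 109 of 224 measured miRNAs, near the middle. The 6 miRNAs closest to the cluster in total reads had ratios of 0.370 (Gm47301-5p), 0.354 (Mir146-5p), 0.529 (Mir29c-3p), 1.04 (Mir15a-5p), 0.421 (Mir93-5p) and 1.15 (Mir15b-5p). Of large, broadly expressed miRNA sets, the let-7 family and miR-17~92 with its paralogs, had ratios of 0.640 and 0.592.

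A single miRNA, miR-669c-5p, carried most of the difference in the total. Without it the cluster had 592 nuclear and 674 cytoplasmic reads, a ratio of 0.897 (0.801 to 1.003). It made up 32.4% of the cluster's nuclear and 50.8% of its cytoplasmic reads.

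Of the 40 groups, 9 had at least 50 reads over both libraries and were measured, and they held 1843 reads or 82.0% of the members' reads. A group was called higher or lower when its nuclear over cytoplasmic ratio was at least 2-fold from 1 on the log2 scale (with 0.5 reads added to each count) and its interval excluded 1. By this rule 1 of the 9 groups was higher in the nuclear library, miR-466f-2-3p, and 2 were lower, miR-669c-5p and miR-467e-5p. The lower calls depend on the scale, with 0 of them when libraries are scaled to their miRNA total, 5 with TMM factors and 6 with the median of ratios. With full-length matches only, or only sequences inside Sfmbt2, miR-466f-2-3p fell under 50 reads and 0 groups were called higher. Over all 224 measured miRNAs 13.4% were called higher and 26.8% lower, and over all 936 measured small RNAs 40.9% and 11.0%. The groups' counts are near the shares of all miRNAs and are no result about the cluster as a whole. The median log2 ratio of the 9 groups was -0.59, beside -0.61 over all measured miRNAs and 0.64 over all measured small RNAs. Intervals excluded 1 for 2 groups above and 5 below, and held 1 for 2 groups. The share of all miRNAs with such intervals was not counted, so these numbers are no result about the cluster.

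**Figure D1:**
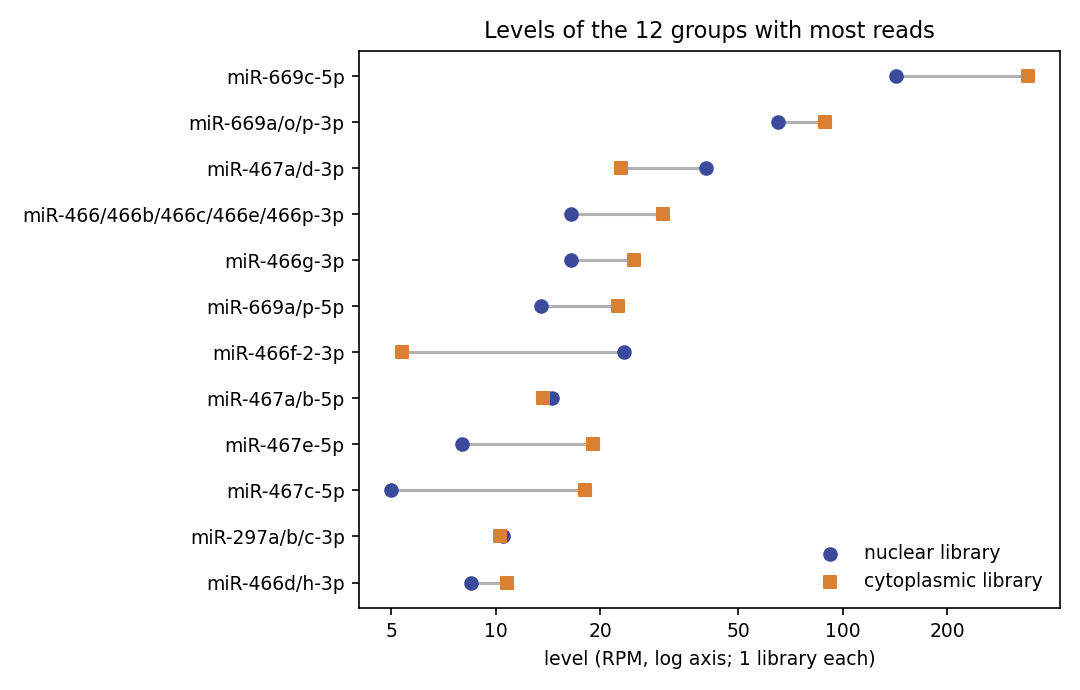
Level of the 12 groups with most reads in the nuclear library (circles) and the cytoplasmic library (squares), in RPM on a log axis, with 1 library each. miR-669c-5p stands highest in both libraries, at 142 and 341 RPM, and miR-466f-2-3p and miR-467a/d-3p have their circle well to the right of their square.

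The miR-669 family was the largest part of the cluster, with 482 nuclear and 977 cytoplasmic reads and a ratio of 0.504 (0.451 to 0.562). Its leading member, miR-669c-5p, comes from Mir669c, a hairpin at chr2:10509296-10509404 on the plus strand and the only hairpin in the annotation that its reads match. miR-669c-5p had 284 nuclear and 697 cytoplasmic reads, or 142 and 341 RPM. The cytoplasmic level was 2.40-fold higher (2.09 to 2.77), and the log2 ratio of -1.26 lay above that of 34 of 224 measured miRNAs. Among all miRNAs it ranked 82 by reads in the nuclear and 68 in the cytoplasmic library. The hairpin gave almost only its 5p arm, with 981 reads against 2 reads of the 3p arm.

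The reads of miR-669c-5p formed 35 sequences, and they began at the same base in 98.9% of nuclear and 98.6% of cytoplasmic reads. Most of them were longer than a typical miRNA. The 24-nt form printed first above made up 62.7% of nuclear reads (56.8 to 68.3) and 60.1% of cytoplasmic reads (56.4 to 63.8), with 178 and 419 reads. The 22-nt form, which ends 2 bases earlier, made up 16.2% (12.1 to 21.0) and 19.2% (16.4 to 22.4), and the 23-nt form 12.7% (9.04 to 17.1) and 11.0% (8.82 to 13.6). The intervals of the libraries overlapped for each form, so no difference in length between the fractions was detectable at this depth. Reads with unmatched 3′ bases were 5.63% and 5.31%, and the most frequent of them carried 1 added A (7 nuclear and 18 cytoplasmic reads):
miR-669c-5p, 22 nt: aTAGTTGTgtgtggatgtgtgt
miR-669c-5p, 23 nt: aTAGTTGTgtgtggatgtgtgta
miR-669c-5p, 23 nt with an added A: aTAGTTGTgtgtggatgtgtgtaa

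**Figure D2:**
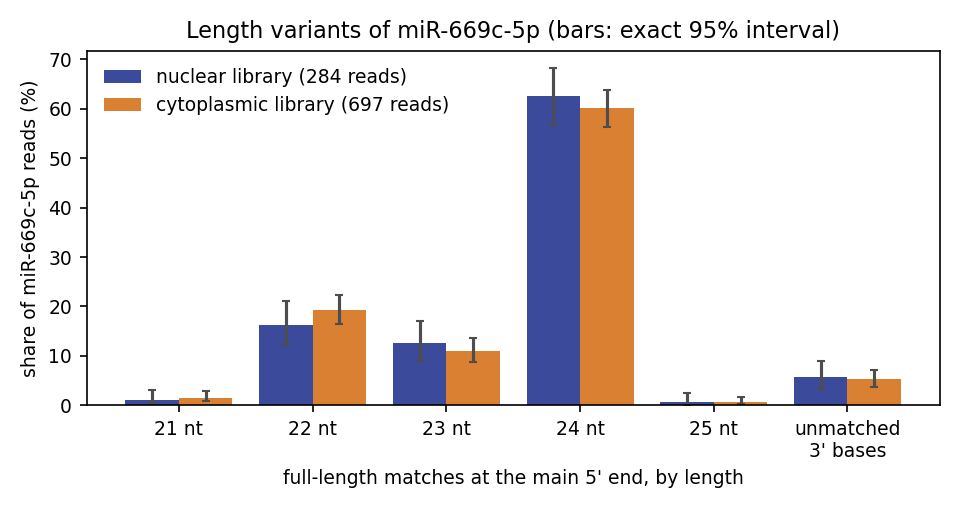
Share of miR-669c-5p reads (in %) that match Mir669c in full at the main 5′ end, by length, and share with unmatched 3′ bases, in the nuclear (284 reads) and cytoplasmic (697 reads) library, with exact 95% intervals. The 24-nt form leads in both libraries, at 62.7% and 60.1%, and every pair of intervals overlaps.

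The other measured miR-669 groups come from hairpins with near-identical copies. miR-669a/o/p-3p, shared by 15 hairpin arms, had 130 nuclear and 182 cytoplasmic reads, or 65.0 and 89.2 RPM, with a ratio of 0.729 (0.578 to 0.918). miR-669a/p-5p, from the opposite arm of the repeated miR-669a hairpins and shared by 16 arms, had 27 and 46 reads, or 13.5 and 22.5 RPM, with a ratio of 0.599 (0.358 to 0.984). Both intervals lay below 1, and neither group reached a 2-fold difference. Without miR-669c-5p the family had 198 and 280 reads and a ratio of 0.722 (0.599 to 0.869). The ratio of miR-669c-5p was 0.571 times that of miR-669a/o/p-3p (0.435 to 0.750). Against miR-669a/p-5p, from the same arm as miR-669c-5p, the quotient was 0.694 with an interval that held 1 (0.413 to 1.19). Reads that match the repeated miR-669a hairpins numbered 312 of the 3p arm and 73 of the 5p arm, the reverse order of Mir669c. Mir669o also matches 312 3p reads and each Mir669p hairpin 73 5p reads, so the balance of arms of the miR-669a hairpins alone is unknown.

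The miR-467 family had 158 nuclear and 178 cytoplasmic reads, a ratio of 0.906 (0.727 to 1.13). Its 3p arms had 86 and 53 reads, a ratio of 1.66 (1.16 to 2.38), and its 5p arms 72 and 125 reads, a ratio of 0.588 (0.434 to 0.792). The ratio of the 3p arms was 2.81 times that of the 5p arms (1.76 to 4.53). The 5p arm made up 45.6% of nuclear reads of the family (37.6 to 53.7) and 70.2% of cytoplasmic reads (62.9 to 76.8).

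The 3p side of miR-467 was nearly all miR-467a/d-3p, which 12 hairpin arms share. It had 81 nuclear and 47 cytoplasmic reads, or 40.5 and 23.02 RPM, with a ratio of 1.76 (1.21 to 2.58), above 1 but short of 2-fold. The 5p side was made of several sequences that differ in or near the seed. miR-467a/b-5p, shared by 12 arms, had 29 and 28 reads, a ratio of 1.06 (0.607 to 1.84). miR-467e-5p, from the single hairpin Mir467e at chr2:10505721-10505807, had 16 and 39 reads, or 8.0 and 19.1 RPM, with a cytoplasmic level 2.39 times the nuclear one (1.30 to 4.58). Its most-read sequence alone, with 11 and 21 reads, had a ratio of 0.535 (0.233 to 1.16), which gave no call. miR-467c-5p, from Mir467c at chr2:10473931-10474027, had 10 and 37 reads, under the minimum for a call, with a ratio of 0.276 (0.122 to 0.566). miR-467d-5p had 17 and 21 reads, a ratio of 0.826 (0.409 to 1.64). Of the 4 miR-467 5p groups, the intervals of miR-467e and miR-467c lay below 1 and those of miR-467a/b and miR-467d held 1. The ratio of miR-467a/b-5p was 2.50 times that of miR-467e-5p (1.08 to 5.95). Between the arms of the repeated miR-467a hairpins, the ratio of miR-467a/d-3p was 1.66 times that of miR-467a/b-5p, with an interval that held 1 (0.841 to 3.28).

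The miR-466 family had 191 nuclear and 191 cytoplasmic reads, a ratio in RPM of 1.02 (0.831 to 1.25), and its groups went different ways. The family's ratio was 1.88 (1.53 to 2.32) when libraries were scaled to their miRNA total and 0.675 (0.550 to 0.830) with the median of ratios. Nearly all of its reads were of 3p arms, and 5p reads were 8.90% in the nuclear and 12.04% in the cytoplasmic library. The joint group miR-466/466b/466c/466e/466p-3p, shared by 15 arms of the repeated unit, had 33 and 62 reads, or 16.5 and 30.4 RPM, with a ratio of 0.543 (0.345 to 0.842), but its most-read sequence alone had 13 and 14 reads and a ratio of 0.948 (0.410 to 2.17). miR-466g-3p, assigned to Mir466g at chr2:10514595-10514674, had 33 and 51 reads, a ratio of 0.660 (0.413 to 1.04). Only 7 of its 84 reads match that hairpin in full, and 5 of those also match a transcript outside Sfmbt2. miR-466d/h-3p had 17 and 22 reads, a ratio of 0.789 (0.393 to 1.56).

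Among the 9 measured groups, miR-466f-2-3p had the highest ratio of nuclear to cytoplasmic level. It had 47 nuclear and 11 cytoplasmic reads, or 23.5 and 5.39 RPM, with a ratio of 4.36 (2.23 to 9.32) and a log2 ratio above that of 205 of 224 measured miRNAs. Its hairpin, Mir466f-2, lies at chr2:10468675-10468768. A related group from the hairpins Mir466f-1 and Mir466f-3, miR-466f-3p, had 25 and 6 reads and a ratio of 4.25 (1.70 to 12.7), under the minimum for a call. These groups begin with the same 20 bases and differ only after them. By themselves the 20 bases were deposited as a sequence shared by both groups, with 11 nuclear and 1 cytoplasmic reads. That sequence also matches 4 miRNA genes outside Sfmbt2 and 17 long genes, so its reads cannot be given to the cluster alone:
shared by both groups: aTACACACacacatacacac
miR-466f-2-3p, 23 nt: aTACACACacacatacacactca
miR-466f-3p, 22 nt: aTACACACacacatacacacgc
Of the 58 reads of miR-466f-2-3p, 32 also match a transcript outside Sfmbt2, and the 21-nt sequence printed for the group above (15 nuclear and 1 cytoplasmic reads) is also found in Mir466i on chromosome 13. The seed TACACAC of these groups is the seed of mmu-miR-466i-3p in the RefSeq table. The other 26 reads had a log2 ratio of 2.35. All 26 carry unmatched 3′ bases, and such reads were searched for in longer transcripts only over their full length. They are therefore not shown to lack a copy elsewhere.

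The miR-297 family was the smallest, with 30 nuclear and 21 cytoplasmic reads, all of 3p arms, and a ratio of 1.46 (0.807 to 2.68). The 5p arms of Mir297a-2, Mir297a-3 and Mir297a-4 each matched 5 reads, which other families share and which are not in this sum. miR-297a/b/c-3p had 21 reads in each library. Reads of the single copy Mir297a-2 numbered 9 in the nuclear and 0 in the cytoplasmic library, all of a single sequence:
miR-297a-2-3p: aTATACATacgcacatacccat
It resembles the sequence printed for miR-297a/b/c-3p, which had 16 nuclear and 13 cytoplasmic reads.

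Over the whole cluster the arms differed as well. The 5p arms had 432 nuclear and 928 cytoplasmic reads, a ratio of 0.475 (0.423 to 0.533), and the 3p arms 444 and 443 reads, a ratio of 1.02 (0.895 to 1.17). The ratio of the 3p arms was 2.15 times that of the 5p arms (1.80 to 2.57). The difference was smaller without miR-669c-5p, where the 5p ratio was 0.654 (0.528 to 0.807). With 3p sequences limited to those whose annotated matches all lie inside Sfmbt2, the ratio of the 3p arms was 1.42 times that of the 5p arms without miR-669c-5p (1.10 to 1.83). These 3p arms include 130 and 182 reads of miR-669a/o/p-3p, 81 and 47 of miR-467a/d-3p and 22 and 4 of miR-466f-2-3p. The last are not shown to lack a copy elsewhere. The quotient was not computed without single 3p groups, so it is not shown to hold for 3p arms in general. In the miR-669 family the ratio of the 3p arms was 1.62 times that of the 5p arms (1.25 to 2.10), and this rested on miR-669c-5p: without it the 5p arms had 56 and 80 reads and the quotient was 1.01 (0.665 to 1.55). A quotient of ratios of this kind does not depend on how the libraries are scaled. Over the 36 pairs of measured groups, 17 such quotients had an interval that excluded 1. Pairs of all measured miRNAs were not counted in this way, so the count is no result about the cluster. The quotient furthest from 1 was that of miR-669c-5p to miR-466f-2-3p, at 0.0956 (0.0441 to 0.190).

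**Figure D3:**
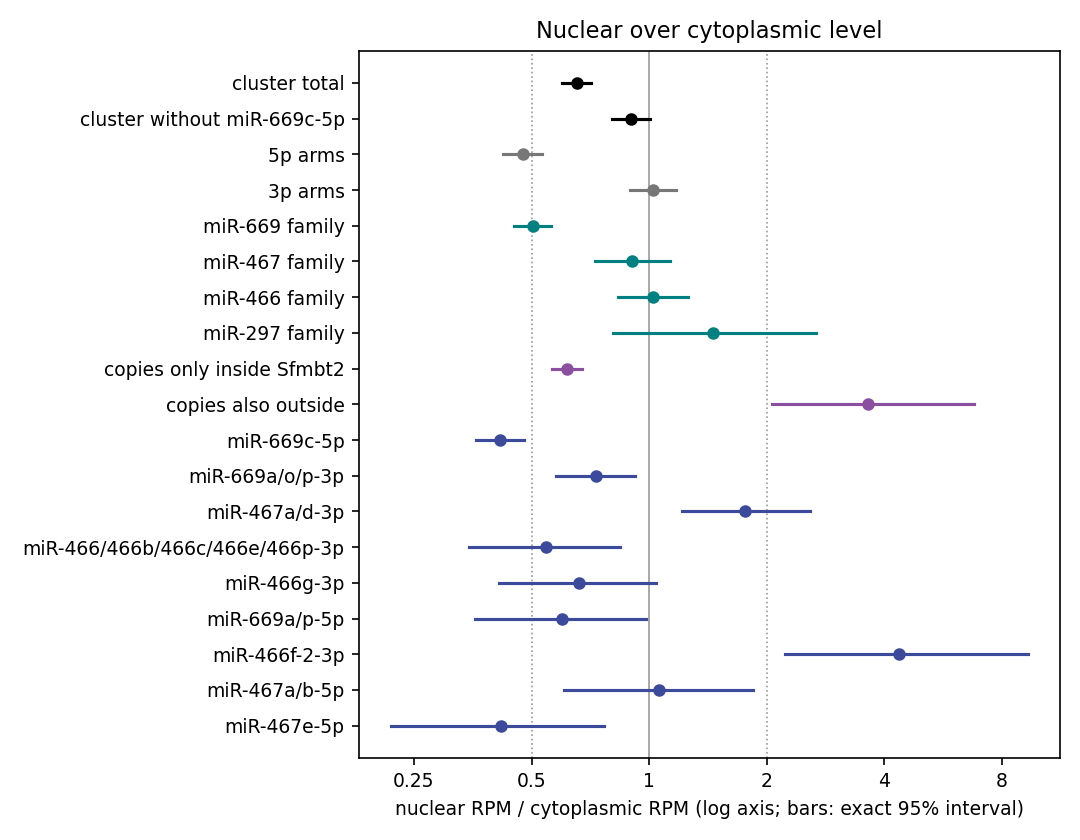
Ratio of nuclear to cytoplasmic RPM on a log axis for the cluster total, its arms, families and copies, and the 9 measured groups, with exact 95% intervals; dotted lines mark 2-fold. The 5p arms (0.475) and 3p arms (1.02) do not overlap, and miR-466f-2-3p (4.36) and the sequences with a copy outside Sfmbt2 (3.64) lie furthest to the right.

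Many members belong to near-identical copies, so the place of each read in the intron is often unknown. A total of 1428 reads (63.6%) matched only 1 hairpin of the cluster, and these came from 24 hairpins, with 983 from Mir669c. The hairpins of the repeated unit had few reads of their own, such as 4 of Mir669a-3 and 1 of Mir467b. The 9 identical copies of the miR-669a hairpin each matched the same 385 reads, and it cannot be told which copies gave them. The hairpins without a miRNA name contributed little: their reads that no named hairpin shares numbered 13.

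**Figure D4:**
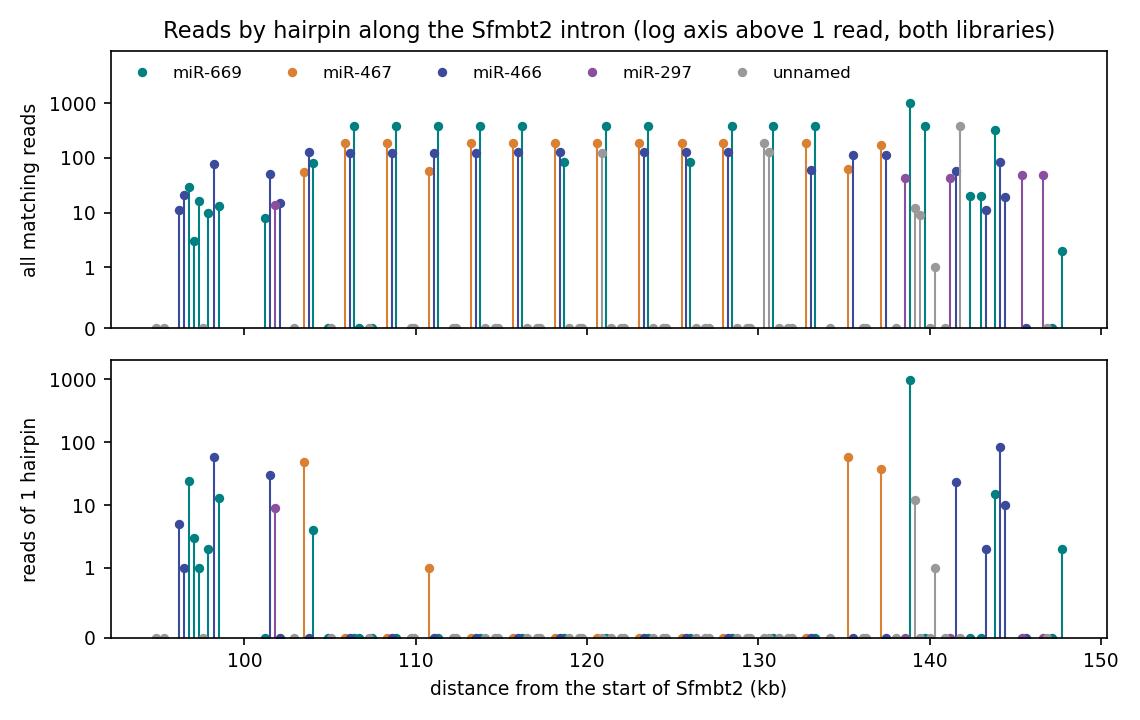
Reads of both libraries that match each of the 119 hairpins, against the distance of the hairpin from the start of Sfmbt2 in kb (log axis above 1 read); the upper panel counts all matching reads and the lower panel reads that match only 1 hairpin of the cluster. Mir669c stands out with 983 reads of its own, while the repeated hairpins in the middle share the same reads.

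Some members also match transcripts outside Sfmbt2. The 270 sequences whose annotated matches all lie inside Sfmbt2 had 819 nuclear and 1355 cytoplasmic reads, a ratio of 0.617 (0.565 to 0.673). The 24 sequences with a further match outside had 57 and 16 reads, a ratio of 3.64 (2.06 to 6.78). The second ratio was 5.89 times the first (3.31 to 11.1). This compares different groups of miRNAs: within miR-466f-2-3p, reads with a copy outside numbered 25 and 7, a ratio of 3.65 (1.53 to 9.98), and those without 22 and 4, a ratio of 5.61 (1.91 to 22.4). In miR-466g-3p they numbered 1 and 4 with a copy and 32 and 47 without. The reads without a copy all had unmatched 3′ bases in miR-466f-2-3p, and nearly all had them in miR-466g-3p. Such reads were searched for in longer transcripts only over their full length, so these splits cannot show what outside copies contribute. Of the 24, 20 also lay in a longer transcript (54 and 14 reads) and 13 in another miRNA gene (41 and 6 reads). Of genes of the same families outside Sfmbt2, Mir466i on chromosome 13 matched 113 nuclear and 4 cytoplasmic reads, Mir466q on chromosome 3 matched 100 and 1, and Mir466k on chromosome 3 matched 85 and 1. These are largely the same reads, since 82 nuclear reads match all 3 genes, and 80 of those are pure repeats of G and T. The other 7 of 10 such genes had at most 3 reads in a library. Copies in unannotated sequence could not be looked for here.

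Simple repeats were part of this. The 4 deposited sequences made only of alternating C and A had 11 nuclear and 0 cytoplasmic reads, and all 4 were members through the hairpin Gm24342, though each of them also lies in 1835 to 2091 long genes. Sequences antisense to the hairpins had 98 nuclear and 0 cytoplasmic reads, of which 87 were of pure repeats of G and T. Where the longest alternating stretch of C and A or G and T in a member was under 9 bases, the ratio was 0.566 (0.513 to 0.625), with 625 and 1127 reads. Where it was 9 to 11 bases, the ratio was 0.999 (0.829 to 1.20), with 229 and 234 reads, and at 12 bases or more there were 22 and 10 reads. The set under 9 bases includes the main forms of miR-669c-5p, a group with 284 nuclear and 697 cytoplasmic reads. Ratios by stretch were not computed without that group, so they cannot be read as a trend with repeat length. Whether repeat sequence from elsewhere in the genome accounts for any of these reads was not tested.

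By seed, the members had 45 distinct seeds, and the 5 leading ones held 73.1% of reads. TAGTTGT of miR-669c-5p alone held 43.1%, and CATAACA of miR-669a/o/p-3p held 12.9%. TATACAT occurred in 3p reads of miR-297, miR-466, miR-467 and miR-669 hairpins and had 123 nuclear and 65 cytoplasmic reads. GTTGTGT had 39 and 64 reads and ATACATA 26 and 68. A shift of the 5′ end by 1 base turns TATACAT into ATACATA in the same arm. The seed AAGTGCC of miR-467a/b-5p is also the seed of mmu-miR-290a-3p in the RefSeq table, a member of the embryonic stem cell cluster named above.

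The start of the mature sequence was fixed in some groups and varied in others. In miR-466/466b/466c/466e/466p-3p, reads that begin 1 base earlier than the printed sequence (seed ATACATA) had 11 nuclear and 36 cytoplasmic reads, and those that begin where it begins (seed TACATAC) had 21 and 23. In miR-467a/d-3p the printed start (seed TATACAT) had 77 and 34 reads, and the start 1 base later (seed ATACATA) had 4 and 13. Examples of starts other than the printed ones are given here. That start held 47 reads beside 44 of the printed one in the miR-466 group, and 30 beside 17 in miR-467c-5p:
miR-466/466b/466c/466e/466p-3p, 21 nt, earlier start: tATACATAcacgcacacataa
miR-467c-5p, 22 nt, later start: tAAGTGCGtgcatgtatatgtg
The first of them had 3 nuclear and 15 cytoplasmic reads, and the second had 1 and 12. The second has as many reads in total, 13, as the sequence printed for miR-467c-5p. In a check added after these values were seen, 7 groups had a pair of leading seeds of at least 10 reads each. The interval of the quotient of their ratios excluded 1 in 2 of these groups. Other miRNAs were not counted in this way, so the count is no result about the cluster. The ratio of the first seed was 0.339 times that of the second (0.123 to 0.894) in the miR-466 group and 7.24 times (2.04 to 32.7) in miR-467a/d-3p. In the miR-466 group the earlier start was more cytoplasmic and in miR-467a/d-3p the later one, so the shift had no common direction. Both are the forms with the seed ATACATA.

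Member reads were 18 to 27 nt long. They included more 24-nt reads than those of all miRNAs in both libraries, at 25.7% of nuclear and 33.6% of cytoplasmic reads, beside 6.47% and 7.61%. The 22-nt reads made up 29.3% and 28.0%, beside 47.4% and 45.4%. The 24-nt form of miR-669c-5p alone was 178 of the 225 nuclear and 419 of the 461 cytoplasmic 24-nt reads.

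**Figure D5:**
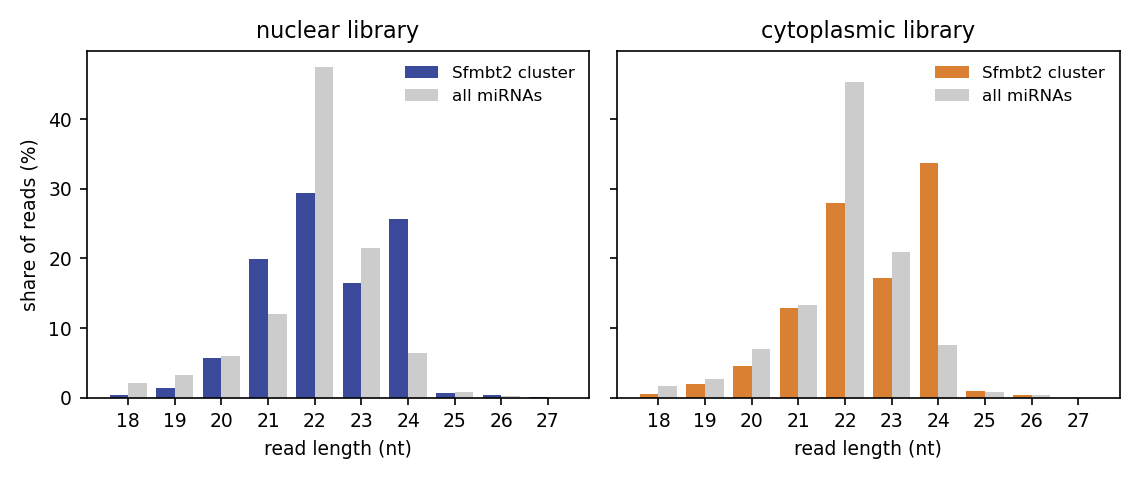
Share of reads (in %) by read length in nt for the Sfmbt2 cluster (coloured) and for all miRNAs (grey) in the nuclear and cytoplasmic library. The cluster has a second peak at 24 nt (25.7% and 33.6%), where all miRNAs have 6.47% and 7.61%.

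Unmatched 3′ bases were less frequent in the cluster than over all miRNAs. They were present on 14.4% of nuclear member reads (12.1 to 16.9) and 10.1% of cytoplasmic ones (8.52 to 11.8), beside 17.6% and 17.1% of all miRNA reads. The largest group, miR-669c-5p, lowers these shares, with such bases on 5.63% of its 284 nuclear and 5.31% of its 697 cytoplasmic reads. Shares without miR-669c-5p were not computed, so the lower frequency is not shown for the other members. miR-466g-3p differed from the rest of the cluster, with unmatched 3′ bases on 91.7% of its 84 reads. Its 4 most-read sequences share their first 20 bases and carry different ends:
miR-466g-3p, 22 nt: aTACAGACacatgcacacactt
miR-466g-3p, 21 nt: aTACAGACacatgcacacact
miR-466g-3p, 23 nt: aTACAGACacatgcacacaccaa
Without miR-466g-3p the shares were 11.2% and 7.05%. Among the remaining reads with unmatched bases a single A was the most frequent addition (89 reads, 47.6%), ahead of a single T (31 reads).

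The other groups had few reads. The 12 groups of 10 to 49 reads held 289 reads, with intervals above 1 for 2 of them and below 1 for 1. No share over all miRNAs of that depth was counted beside these. Among those with reads in both libraries, log2 ratios ran from -1.81 (miR-467c-5p) to 2.0 (miR-466f-3p). The 19 groups under 10 reads held 69 reads. Differences in these groups were mostly not detectable at this depth.

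Traces of the host gene and of the miRNA machinery were looked for among the same small RNAs. Exons of Sfmbt2 gave 1 read, in the cytoplasmic library, so the hairpin reads do not come with fragments of the mature host mRNA at this depth. Of 18 genes of miRNA processing and function, 15 had a read and 2 had at least 50: Ddx17 (44 nuclear and 17 cytoplasmic reads) and Ddx5 (71 and 38), which encode helicases that act with Drosha. By the call rule 1 of them was higher in the nuclear library (Ddx17) and 0 were lower. Over all 936 measured small RNAs 40.9% were called higher and 11.0% lower, so this count is no result about these genes. Such fragments do not measure the level of the mRNAs.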

How the data were processed

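The members and lists were chosen with earlier results of these data known. The authors deposited 1 table of sequences with RPM values, and per the submitters' processing notes CASAVA and mm10 were used. How reads were trimmed, aligned and filtered is not given in the sources used here. Columns were assigned to fractions on the last letter of their names. All values (100% within 0.1 read) were whole multiples of 1 read (0.500 RPM nuclear, 0.490 RPM cytoplasmic), so whole reads were recovered. With 1 library a group, a count test such as edgeR's could not be fitted, since nothing estimates the spread.

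Sequences were matched to GENCODE vM21 transcripts in full, and otherwise to small RNA transcripts after removal of up to 3 bases at the 3′ end with at least 18 left. Of the sequences so matched, 7 (6 nuclear and 2 cytoplasmic reads) fitted another gene better and were left out. Arms were set by the loop that RNAfold 2.7.2 predicts. Ratios have exact (Clopper-Pearson) 95% intervals. Every group with at least 50 reads is named, and the 12 with most reads are described with their sequences. RefSeq's table held mature sequences for 0 of the hairpins, so deposited reads are printed. Scripts were tested on simulated data. Scalings (edgeR 4.0.16 TMM, median of ratios, miRNA total), filters, pseudocounts, matching and grouping were varied.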

Additional observations from a re-analysis of the deposited data

How the results depend on the processing

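The scaling moves every log2 ratio by -0.47 (TMM), -0.60 (median of ratios) or 0.88 (miRNA total). The cluster total, -0.62 on the log2 scale, became -1.09, -1.21 and 0.27. The median of the measured groups, -0.59, became 0.29 under the miRNA total. For 5p arms the miRNA total gave -0.19, and for 3p arms the 3 scalings gave -0.44, -0.56 and 0.92. The families followed: miR-669 -1.46, -1.58 and -0.10, miR-467 -0.61, -0.74 and 0.74, miR-466 -0.44, -0.57 and 0.91, and miR-297 1.42 under the miRNA total. Under the miRNA total, miR-669a/o/p-3p (0.43), miR-466/466b/466c/466e/466p-3p (0.015) and miR-669a/p-5p (0.16) changed sign without a call. The ratio intervals of miR-466/466b/466c/466e/466p-3p (0.637 to 1.55) and miR-669a/p-5p (0.661 to 1.82) then held 1. On that scale miR-669c-5p (-0.38) and miR-467e-5p (-0.34) kept their sign without a call. Groups called lower, 2, became 5, 6 and 0 under the 3 scalings, and groups called higher, 1, became 2 under the miRNA total. Of all miRNAs, those called lower, 60, became 127, 144 and 11, and those called higher, 30, became 52 under the miRNA total.

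With at least 20 reads or no minimum, 2 and 4 groups were called higher, and 53 and 64 miRNAs higher; 96 miRNAs were lower with no minimum. With full-length matches only, or only sequences inside Sfmbt2, 0 groups were called higher, since miR-466f-2-3p then had under 50 reads; its log2 ratio was 1.74 and 2.35. Full-length matches left miR-466g-3p 7 reads and a log2 ratio of -2.09. The most-read sequence of each group alone gave miR-467e-5p -0.87 (call lost), miR-467a/d-3p 1.25 (called higher), miR-466/466b/466c/466e/466p-3p -0.07 and miR-466f-2-3p 3.4; the calls of miR-669c-5p and miR-466f-2-3p held. Some checks were chosen after seeing the data. Without miR-669c-5p the total was -0.16, miR-669 -0.47 and 5p arms -0.61. Without miR-466g-3p, reads with unmatched 3′ bases were 11.2% (nuclear) and 7.05% (cytoplasmic), and counting 1 base only gave 7.53% and 5.76%. Limiting reads to 5′ ends within 2 bases of the commonest changed no call. The planned limit to annotated mature 5′ ends was not run, for want of mature entries. No paired analysis was possible because each group has 1 library. Groups under 50 reads are limited by depth.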
